A study of Mus musculus with 21 samples.

Results

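The 33 genes described here encode the enzymes, regulators and carriers of sterol and fatty acid synthesis. They were taken from a list of gene symbols for lipid synthesis under sterol regulatory element-binding proteins (SREBPs), by a rule that used no measured value, and they were 33 of the 23412 genes counted. Of them, 32 were found by the listed symbol and 1, Msmo1, by the older symbol Sc4mol, and all 33 had enough counts to be among the 14963 genes tested. By role, 7 genes belonged to the mevalonate branch from acetyl-CoA to farnesyl diphosphate, 11 to the steps from there to cholesterol, 5 to control and transport, and 10 to fatty acid synthesis, desaturation and activation.

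Poly-A RNA was sequenced from v6.5 cells, a male line of mouse embryonic stem cells (mESCs), in 7 groups of 3 libraries. Wild-type (WT) mESCs received the control siRNA siGLO or an siRNA against Pds5b (siPds5b), Pds5b-/- mESCs received siGLO, and Pds5a-/- mESCs received siGLO, siPds5b, siStag1 or siStag2. All cells, the controls included, were transfected with 50 nM siRNA and collected 48 h later, so every group shared the transfection. PDS5A, PDS5B, STAG1 and STAG2 are regulatory subunits of cohesin, the complex that extrudes chromatin loops. Each knockout was 1 CRISPR-edited clone, so an effect of the clone cannot be told apart from an effect of the gene. A supplementary legend calls the replicates of WT and knockout transcript counts biological, but the sources do not say that libraries came from separate cultures, and p-values measured the spread between these libraries, which may be partly technical. In bulk RNA, fewer cells of a type and less RNA per cell cannot be told apart.

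SREBPs are transcription factors made as membrane proteins of the endoplasmic reticulum. When sterols are plentiful, INSIG proteins hold the SREBP escort SCAP there, and when sterols run low SCAP carries SREBP to the Golgi, where proteases release the part that enters the nucleus. Srebf2 encodes the factor known mainly for sterol synthesis and Srebf1 the factor known mainly for fatty acid synthesis, and both act at promoters together with NF-Y, which binds the CCAAT box, and Sp1, which binds the GC box. Dividing embryonic stem cells make membrane lipids as they grow.

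RefSeq promoter windows on GRCm38.p6, the build also called mm10, ran from 250 bases before to 50 bases from each start on and were matched for 26 of the 33 genes. Fdps, Fdft1, Sqle, Stard4, Scd1, Scd2 and Fads1 had no matched window. The letters TCACNCCAC, a sterol regulatory element, were sought on both strands and were found in 1 of 32 windows of the matched genes, that of Hmgcs1, and in 1.24% of all 32851 windows. CCAAT was found in 68.8% of the matched genes' windows and in 37.4% of all windows, and GGGCGG, the GC box, in 78.1% and 35.7%. No motif is contained in another, and a match is a description of the sequence alone. The promoters of 3 genes that the results turn on are printed from the strand of the gene, with capitals marking TCACNCCAC, CCAAT or GGGCGG on either strand, so that ATTGG and CCGCCC are the reversed CCAAT and GC boxes. Hmgcs1 is shown because it held the sterol element, Ebp because it was lower in both knockouts, and Fasn because it was higher in Pds5b-/- mESCs.
Hmgcs1 (chr13:119690201-119690340, plus strand): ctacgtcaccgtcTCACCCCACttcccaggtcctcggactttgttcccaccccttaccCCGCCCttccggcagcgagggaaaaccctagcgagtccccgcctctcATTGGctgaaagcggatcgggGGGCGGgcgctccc
Ebp (chrX:8193513-8193632, minus strand): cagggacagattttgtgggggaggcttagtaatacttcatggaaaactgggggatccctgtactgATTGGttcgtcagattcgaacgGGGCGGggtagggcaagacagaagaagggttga
Fasn (chr11:120824568-120824707, minus strand): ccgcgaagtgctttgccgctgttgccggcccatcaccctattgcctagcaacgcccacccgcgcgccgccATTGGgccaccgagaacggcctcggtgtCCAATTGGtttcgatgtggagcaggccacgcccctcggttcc

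In the stretches shown, Hmgcs1 held 1 sterol element, 1 reversed CCAAT box and a GC box on each strand. Ebp held 1 reversed CCAAT box and 1 GC box, and Fasn had CCAAT on both strands, with 1 forward and 1 reversed copy sharing letters, and no GC box.

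Per kilobase of exon (GENCODE M21), the genes of fatty acid synthesis lay at both ends of the order in WT siGLO mESCs. Scd2, a desaturase that makes monounsaturated fatty acids, was highest at 3043 ± 336 normalised counts per kilobase (SD, n = 3), followed by Acly, which splits citrate to acetyl-CoA, at 2024 ± 31.9 and Hmgcs1, which makes HMG-CoA, at 1490 ± 60.2. The lowest was Acss2, which makes acetyl-CoA from acetate, at 15.1 ± 0.53. Hsd17b7, a sterol ketone reductase, followed at 58.4 ± 2.78 and Tm7sf2, a sterol reductase, at 71.0 ± 10.8. The ranges of neighbours in this order overlapped for 18 of 32 neighbouring pairs, so the full order was not resolved. The length of a gene was the union of all its annotated exons, such as 10163 bases for Acss2 and 5464 for Scd2. This can exceed the transcript that the cells make, so the order depends on the annotation too. Scd1 and Scd2 are paralogs, and the authors' counting tool and its use of strand were not given in the sources used here, so reads shared between such genes remained uncertain.

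Libraries held 17311090 to 23989198 counts, with a median of 19628146. The targeted Pds5b was counted at 2219 ± 177 in WT siGLO mESCs and at 275.8 ± 37.2 in Pds5b-/- mESCs (normalised counts, SD, n = 3), and siPds5b left 776.2 ± 79.7 in WT and 903.3 ± 169 in Pds5a-/- mESCs. Stag1 was at 574.5 ± 59.7 after siStag1 and Stag2 at 875.2 ± 69.8 after siStag2, from 2428 ± 118 and 3256 ± 316. Pds5a transcripts were still counted at 4271 ± 499.9 in Pds5a-/- siGLO mESCs, against 5059 ± 295 in WT, so transcript level was no check of that edit. All 8 mESC markers were counted in every group, and their summed level was 104200 to 114800 in WT and 54750 to 90230 in the knockout libraries. Of the other cell types listed, the endoderm marker Afp was at 3 counts or fewer in every library.

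Loss of PDS5A moved few of these genes, in both directions. In Pds5a-/- compared with WT mESCs under siGLO, 3 genes were higher and 1 lower by edgeR's quasi-likelihood test at a Benjamini-Hochberg adjusted p under 0.01. Over all genes tested, 17.8% were called in this comparison, 9.63% higher and 8.12% lower, so the 4 of 33 were no more than the background. The median log2 fold change over the 33 genes was 0.12, against 0.002 over all genes, with 24 genes positive and 9 negative. The medians were 0.24 for the mevalonate branch, 0.12 for the sterol steps, 0.17 for control and transport and 0.04 for fatty acid synthesis.

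**Figure D1:**
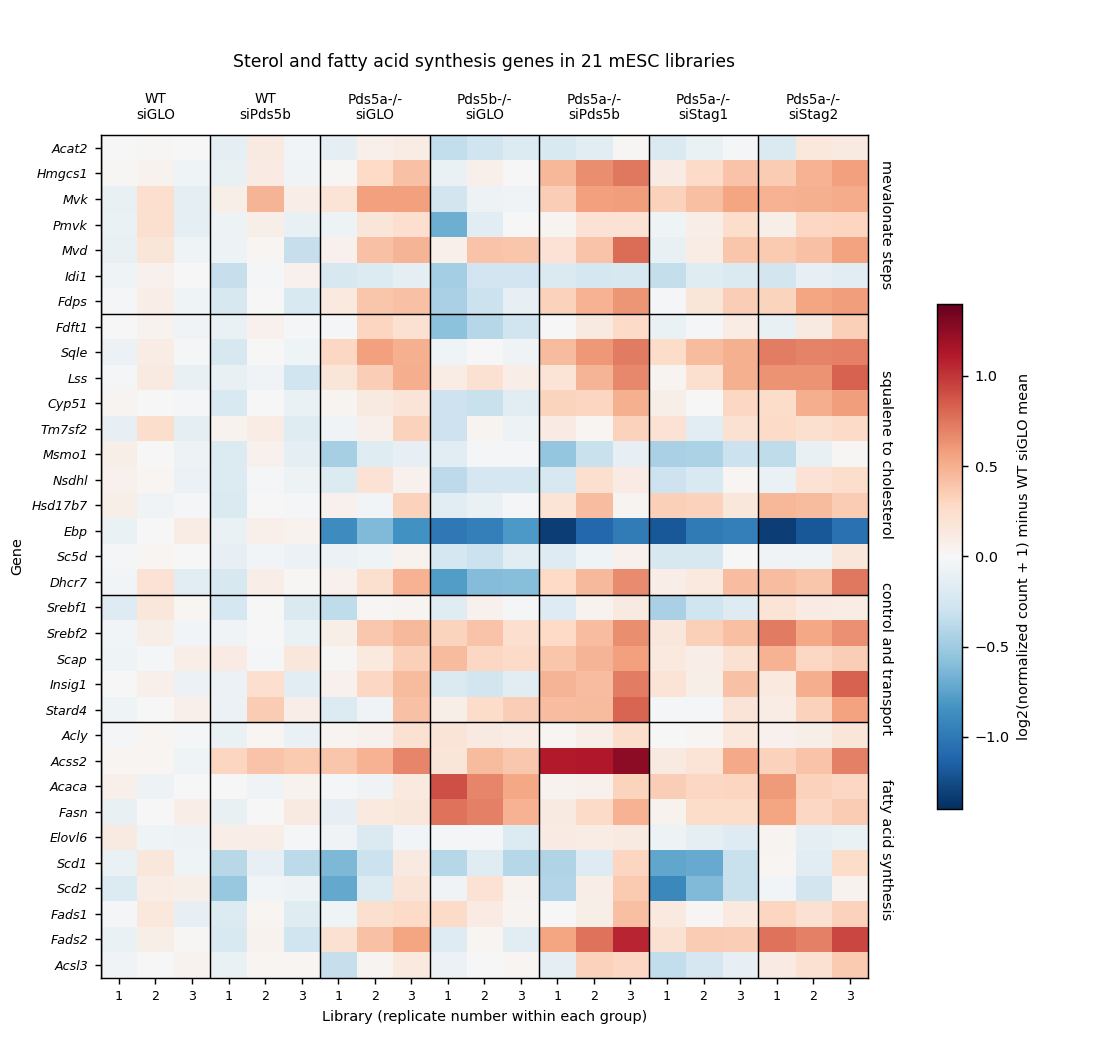
Heat map of log2(normalised count + 1) minus the WT siGLO mean for each of the 33 genes (rows) in each of the 21 libraries (columns), with blue for lower and red for higher values. Ebp is lower in all 15 knockout libraries, and Acaca and Fasn are higher in the 3 Pds5b-/- libraries.

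Ebp, the sterol isomerase that shifts the double bond of the sterol ring late in cholesterol synthesis, was the gene that fell in Pds5a-/- mESCs. Its normalised counts were 671, 714 and 772 in WT siGLO libraries and 389, 469 and 398 in Pds5a-/- siGLO libraries. The groups lay well apart, and all 15 knockout libraries of the series, from 287 to 469, were below the 6 WT libraries, whose lowest was 671. The log2 fold change was -0.78 ± 0.11 (SE; edgeR adjusted p = 5.91e-06).

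Sqle, squalene epoxidase, the first oxygenation of the sterol pathway, had 2058, 2342 and 2169 normalised counts in WT siGLO and 2675, 3245 and 3078 in Pds5a-/- siGLO libraries. The groups did not overlap, and the log2 fold change was 0.45 ± 0.083 (edgeR adjusted p = 0.000233). Acss2 was counted at 156, 157 and 147 in WT siGLO and at 201, 216 and 248 in Pds5a-/- siGLO libraries. These groups did not overlap either, with a log2 fold change at 0.53 ± 0.13 (edgeR adjusted p = 0.00366).

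Mvk, mevalonate kinase, was at 387, 492 and 380 in WT siGLO and at 476, 622 and 623 in Pds5a-/- siGLO libraries, with a log2 fold change of 0.46 ± 0.12 by edgeR (adjusted p = 0.00689). Here the groups overlapped, since the highest WT library was above the lowest knockout library. Ebp and Sqle stayed called without any 1 library, while Acss2 and Mvk did not. The count of called genes was 2 without WT replicate 1 or 3 or Pds5a-/- replicate 2 or 3, and 8 without Pds5a-/- replicate 1. In the same comparison 5 of the 8 mESC markers fell, with sums of 83830 to 90230 against 106400 to 109100 in WT, and the 4 tested trophoblast markers rose, with sums of 1155 to 1546 against 621.3 to 730. Of the neuroectoderm markers 2 of 5 fell (sums of 1126 to 1505 against 1967 to 2692) and none was called higher. At an unadjusted p under 0.05, which 38.57% of all genes reached, 3 of them were positive and 2 negative. The list had a median log2 fold change of 0.82. Nes, at a mean of 2074 in WT siGLO, made up most of the sum. Of the mesoderm markers 1 of 3 tested fell (sums of 239.7 to 376 against 444.3 to 1164). Their part in the lipid gene results was not tested.

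In mESCs without PDS5B, 4 genes of the mevalonate and sterol steps were called lower, and 2 of the 10 genes of fatty acid synthesis were called higher. In Pds5b-/- compared with WT mESCs under siGLO, 3 genes were higher (Acaca, Fasn and Scap) and 4 lower (Ebp, Dhcr7, Fdft1 and Idi1). The background over all genes was 18.2% called, 9.64% higher and 8.57% lower, close to the 7 of 33. The mevalonate branch had a median log2 fold change of -0.26, with 6 of 7 genes negative, and the sterol steps a median of -0.24, with 10 of 11 negative, against -0.003 over all genes. Control and transport genes had a median of 0.23 and fatty acid genes of 0.10, with 6 of the 10 fatty acid genes positive and 4 negative.

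**Figure D2:**
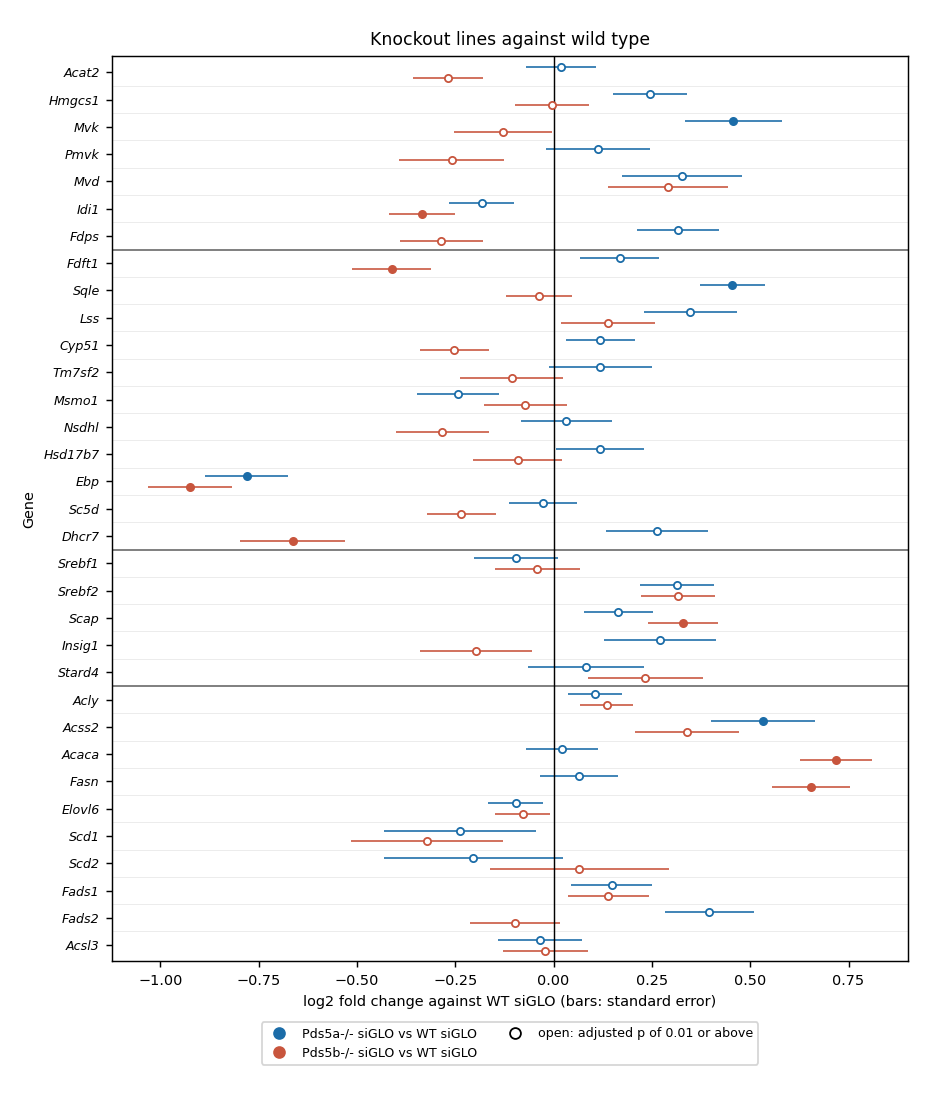
Log2 fold change ± SE of each of the 33 genes (rows, by role) in Pds5a-/- and in Pds5b-/- compared with WT mESCs, all under siGLO, with filled points for genes called at an adjusted p under 0.01. Ebp lies at -0.78 and -0.92, and Acaca at 0.02 and 0.72. Both knockouts are compared with the same 3 WT libraries.

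Acaca encodes acetyl-CoA carboxylase, which commits acetyl-CoA to fatty acid synthesis by making malonyl-CoA. Its normalised counts were 2595, 2339 and 2457 in WT siGLO and 4616, 3962 and 3580 in Pds5b-/- libraries. No Pds5b-/- library came near the WT range, and the log2 fold change was 0.72 ± 0.091 (edgeR adjusted p = 2.77e-06).

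Fasn encodes the fatty acid synthase that builds palmitate from malonyl-CoA, the next step after Acaca. It was counted at 9606, 10302 and 11002 in WT siGLO and at 17424, 16813 and 14427 in Pds5b-/- libraries, again without overlap. The log2 fold change was 0.65 ± 0.10 (edgeR adjusted p = 3.04e-05). The other genes of fatty acid synthesis were not called, among them the elongase Elovl6 at a log2 fold change of -0.08 and Acly at 0.13.

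Dhcr7, the reductase of the last step to cholesterol, had 1163, 1378 and 1070 normalised counts in WT siGLO and 694, 788 and 794 in Pds5b-/- libraries. Every Pds5b-/- library was below every WT library, and the log2 fold change was -0.66 ± 0.13 (edgeR adjusted p = 0.00072). Ebp was counted at 359, 368 and 410 in Pds5b-/- libraries, all below the WT range, with a log2 fold change of -0.92 ± 0.11 by edgeR (adjusted p = 6.38e-07).

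Fdft1, squalene synthase, the branch point to sterols, was at 3132, 3254 and 3039 in WT siGLO and at 2107, 2382 and 2595 in Pds5b-/- libraries (log2 fold change -0.41 ± 0.10, edgeR adjusted p = 0.0033). Idi1, which isomerises isopentenyl diphosphate, was at 1446, 1567 and 1512 in WT siGLO and at 1086, 1252 and 1249 in Pds5b-/- libraries (log2 fold change -0.33 ± 0.084, edgeR adjusted p = 0.00411). Both groups of libraries were separate for each gene. Scap, the escort of SREBP, was higher, at 690, 703 and 767 in WT siGLO and 974, 877 and 863 in Pds5b-/- libraries (log2 fold change 0.33 ± 0.088, edgeR adjusted p = 0.00666). These groups did not overlap.

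Acaca, Fasn, Ebp and Dhcr7 stayed called without any 1 library, but Fdft1, Idi1 and Scap each lost the call without at least 3 of the single libraries. The count fell to 4 without WT replicate 2 or Pds5b-/- replicate 1. In this comparison 6 of the 8 mESC markers fell (sums of 71650 to 83670), 3 of 5 neuroectoderm markers rose (sums of 2402 to 2558, against 1967 to 2692 in WT) and 2 of 6 fibroblast feeder markers fell (sums of 417 to 532.9, against 1168 to 1607). Of the trophoblast markers 2 of 4 tested rose (sums of 826.5 to 971.1), and of the mesoderm markers 1 of 3 tested fell (sums of 263.9 to 398). Of the endoderm markers 0 of 7 tested were called by edgeR. An unadjusted p under 0.05 was reached by 4 of these 7 and by 42.55% of all genes. Their part in the lipid gene results was not tested.

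Neighbouring genes within 500 kb were counted beside the members on the genome (GRCm38.p6). Dhcr7 lies on chromosome 7 from 143823167 to 143848410, and 7 of its 11 tested neighbours were also lower in Pds5b-/- mESCs, at a median log2 fold change of -0.87. Ebp lies on chromosome X from 8185329 to 8193512, where 11 of 26 tested neighbours were lower in Pds5b-/- mESCs and 1 was higher (median -0.36). In Pds5a-/- mESCs 5 of the same 26 were lower and 4 higher.

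Acaca, on chromosome 11 from 84129635 to 84401651, had none of 8 tested neighbours called in Pds5b-/- mESCs. Fasn, on chromosome 11 from 120805958 to 120825166, had 4 of 37 higher and 2 lower. Thus the lower Dhcr7 moved with most of its neighbourhood and the higher Acaca did not, and the part of the neighbourhood in either was not tested. Over the 781 tested genes of chromosome 8, which holds Mvd and Msmo1, Pds5a-/- mESCs had a median log2 fold change of -0.19 and Pds5b-/- mESCs one of 0.30.

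**Figure D3:**
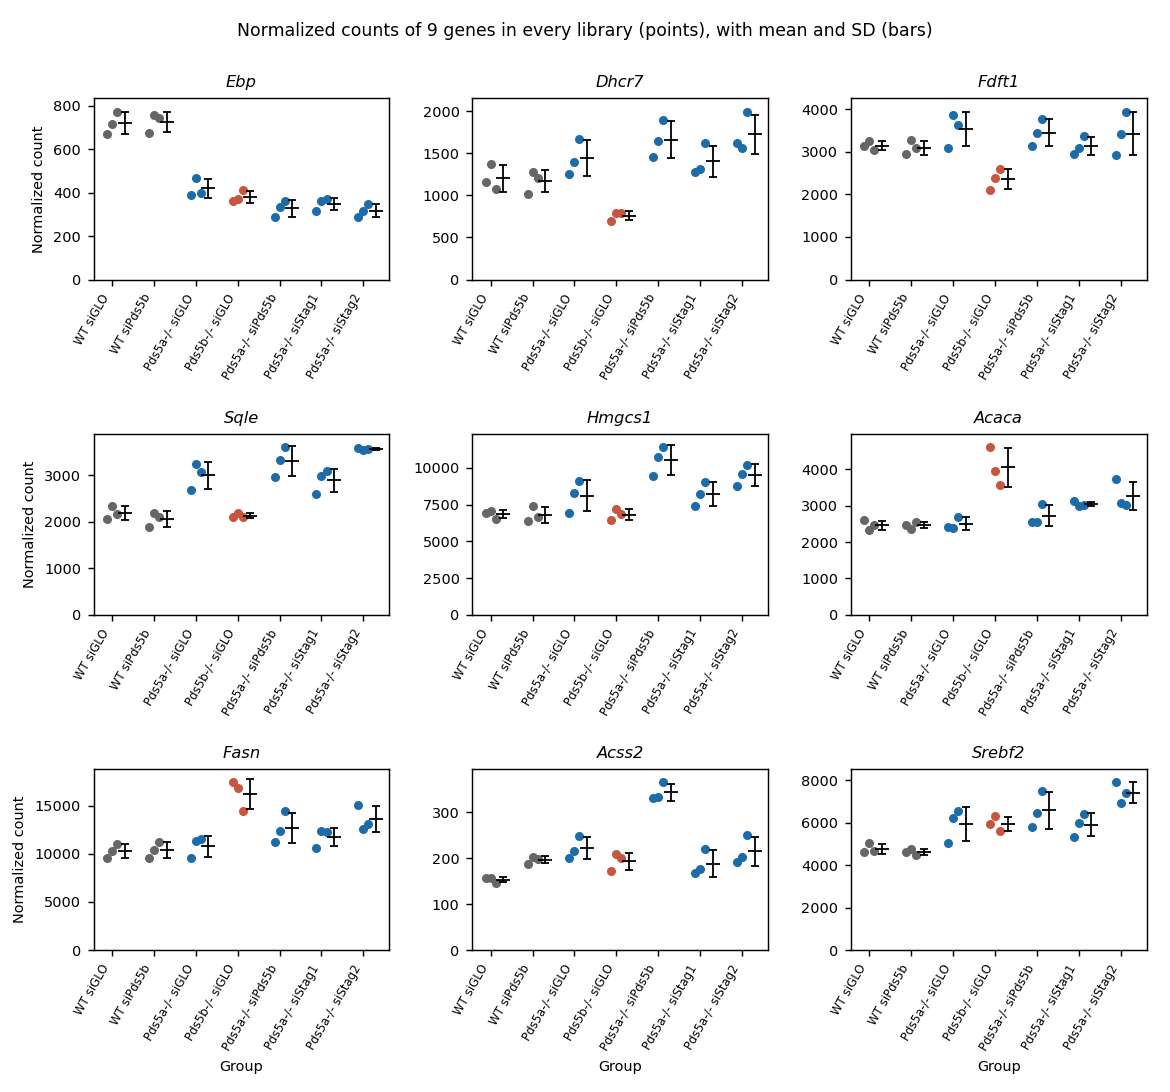
Normalised counts of 9 genes (panels) in each of the 7 groups of 3 libraries, with points for libraries and bars for the mean and SD. Ebp separates the 6 WT from the 15 knockout libraries, Dhcr7, Fdft1, Acaca and Fasn separate Pds5b-/- from Pds5a-/- siGLO, and Acss2 is highest in Pds5a-/- siPds5b, at 331 to 366.

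The direct comparison of both knockouts under siGLO asked which genes differed between loss of PDS5A and loss of PDS5B. It found 7 genes higher in Pds5a-/- mESCs and 2 higher in Pds5b-/- mESCs. The background was 19.2% of all genes called, with 9.74% higher and 9.46% lower in Pds5a-/- mESCs, so 7 of 33 was above the share called higher among all genes. All 7 mevalonate genes were positive, with a median log2 fold change of 0.29, and 10 of 11 sterol genes were positive, with a median of 0.23, against 0.02 over all genes. Mvd, at 0.04, and Msmo1, the negative sterol gene at -0.17, lie on chromosome 8. Its 781 tested genes had a median of -0.48 here, with 53.65% called lower in Pds5a-/- mESCs, and these count in the background. The part of the chromosome was not tested.

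The largest difference was that of Dhcr7, with 1249, 1398 and 1675 normalised counts in Pds5a-/- and 694 to 794 in Pds5b-/- libraries. Its log2 difference was 0.93 ± 0.13 (edgeR adjusted p = 2.04e-05), and 8 of its 11 tested neighbours differed in the same direction, at a median of 1.13. Fdps, which makes farnesyl diphosphate, was at 3955, 4687 and 4788 in Pds5a-/- and at 2620, 2916 and 3311 in Pds5b-/- libraries (log2 difference 0.60 ± 0.11, edgeR adjusted p = 0.00017). Its WT libraries, at 3527, 3824 and 3440, lay between the knockouts.

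Fdft1 was at 3087, 3865 and 3633 in Pds5a-/- libraries, above the 2107 to 2595 of Pds5b-/- libraries (log2 difference 0.58 ± 0.10, edgeR adjusted p = 0.000131). Mvk was at 349, 396 and 402 in Pds5b-/- libraries, below the 476 to 623 of Pds5a-/- libraries (log2 difference 0.59 ± 0.12, edgeR adjusted p = 0.000967). The remaining called genes were Sqle at 0.49, the desaturase Fads2 at 0.49 and the demethylase Cyp51 at 0.37. Cyp51 and Fads2 each lost the call without each of 4 single libraries, and Mvk without Pds5a-/- replicate 2 (edgeR adjusted p = 0.0101).

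In the other direction, Acaca was at 2426, 2376 and 2703 in Pds5a-/- libraries, below the 3580 to 4616 of Pds5b-/- libraries. The log2 difference was -0.70 ± 0.091 (edgeR adjusted p = 3.57e-06). Fasn was at 9529, 11302 and 11486 in Pds5a-/- libraries, below the 14427 to 17424 of Pds5b-/- libraries (log2 difference -0.59 ± 0.10, edgeR adjusted p = 9.83e-05). Neither gene overlapped between the knockouts. Of the cell type markers, 2 mESC, 1 fibroblast feeder and 1 trophoblast marker were higher in Pds5a-/- than in Pds5b-/- mESCs. Lower were 2 neuroectoderm markers and 1 endoderm marker, whose lists summed to 1126 to 1505 and 801.9 to 1716 in Pds5a-/- against 2402 to 2558 and 1333 to 2391 in Pds5b-/- libraries. Their part in the lipid gene results was not tested.

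Knockdown of Pds5b in WT mESCs left these genes without a call. The log2 fold changes ran from -0.29 to 0.36, with a median of -0.05 and 25 of 33 negative, against 0.002 over all genes. None of the 33 was called by edgeR or by DESeq2, over an edgeR background of 0.00668%. An unadjusted p under 0.05 was reached by 1 gene, Acss2, and by 4.22% of all genes. Acss2 was counted at 188, 203 and 199 after siPds5b, above all WT siGLO libraries, with the log2 fold change at 0.36 ± 0.13 (edgeR adjusted p = 0.9998). Of the 8 mESC markers none was called by edgeR, and 2 had an unadjusted p under 0.05.

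In Pds5a-/- mESCs the same siRNA raised 2 of the 33 genes, where 7.59% of all genes were called, 4% higher and 3.59% lower. Acss2 went from 201 to 248 normalised counts under siGLO to 331, 334 and 366 under siPds5b, the highest values of the series. The groups did not overlap, and the log2 fold change was 0.63 ± 0.13 (edgeR adjusted p = 0.00124). Hmgcs1 was at 6942, 8310 and 9070 under siGLO and at 9416, 10725 and 11418 under siPds5b, also without overlap, at a log2 fold change of 0.38 ± 0.094 by edgeR (adjusted p = 0.00758).

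The median over the 33 genes was 0.14, with 27 of 33 positive, and the 5 control and transport genes were all positive, at a median of 0.28, without a call. Same-numbered replicates of these groups deviated together, and with the number as a block in the fit of all 21 libraries 6 genes were called. This block takes the effect of a number as the same in every group. Most of the 33 genes were however highest in replicate 2 of the WT groups and in replicate 3 of the Pds5a-/- groups. In the fit with the block, Acss2 (edgeR adjusted p = 0.000245), Hmgcs1 (0.000424), the sterol carrier Stard4 (0.000636), Fads2 (0.00255) and Scap (0.00808) were higher and Ebp was lower (0.00557). Without the block the count was 1 without siGLO replicate 1 or 2 or siPds5b replicate 2 or 3, when Hmgcs1 lost its call, and 5 without siGLO replicate 3. Of the 8 mESC markers 7 fell, to sums of 60520 to 63730 from 83830 to 90230, 1 trophoblast marker fell (sums of 789.3 to 1025) and 1 neuroectoderm marker rose (sums of 1063 to 1244). Their part in the lipid gene results was not tested.

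**Figure D4:**
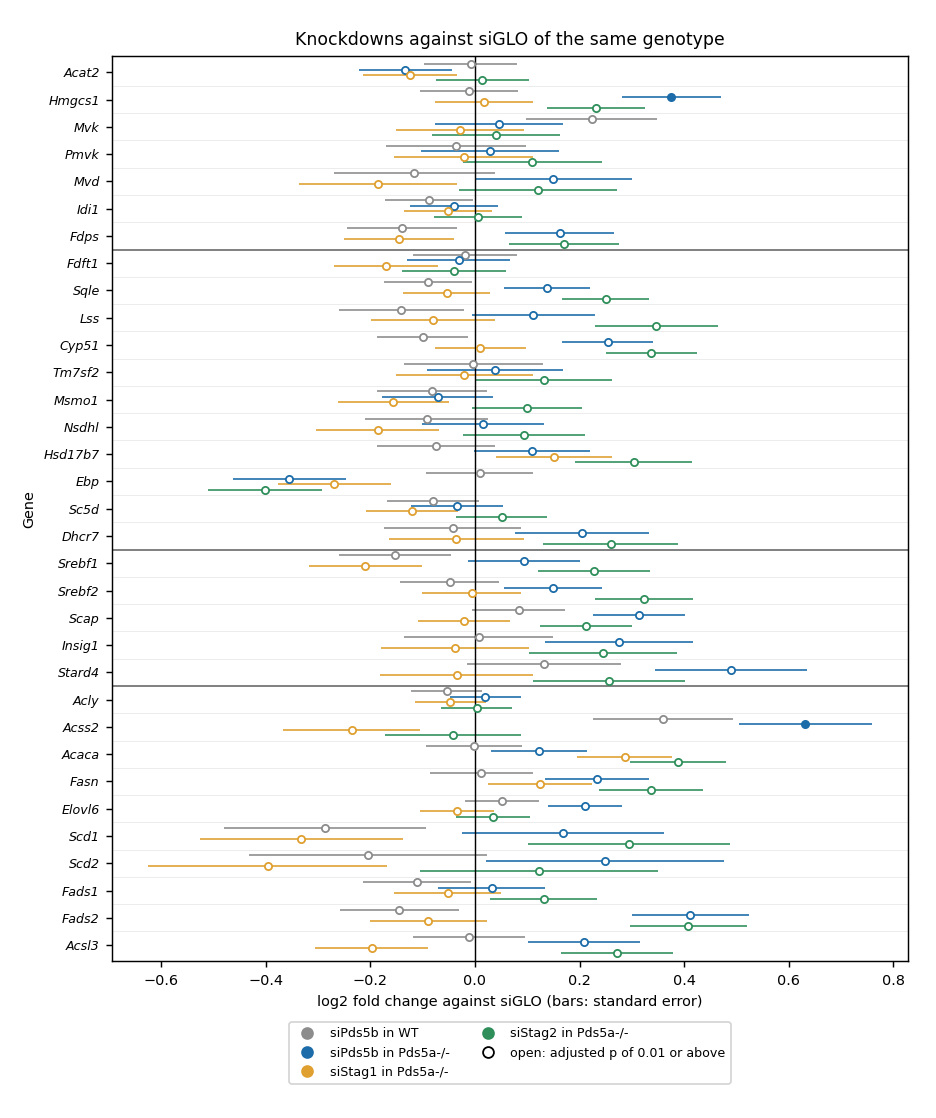
Log2 fold change ± SE of each of the 33 genes (rows) after siPds5b in WT mESCs and after siPds5b, siStag1 or siStag2 in Pds5a-/- mESCs, each against siGLO in the same genotype, with filled points for called genes. The filled points are Acss2, at 0.63, and Hmgcs1, at 0.38, both after siPds5b in Pds5a-/- mESCs. The 3 siRNAs in Pds5a-/- mESCs share the same 3 siGLO libraries.

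Whether siPds5b acted differently in the genotypes was tested as an interaction. None of the 33 genes was called by edgeR or DESeq2, over an edgeR background of 1.48%. Over all genes 17.3% had an unadjusted p under 0.05, and of the 33 genes 4 had one. These were Fads2 at 0.56 ± 0.16 (edgeR adjusted p = 0.0504), Hmgcs1 at 0.39 ± 0.13, Cyp51 at 0.35 ± 0.12 and Ebp at -0.36 ± 0.15. The median interaction was 0.22 on the log2 scale, with 29 of 33 genes positive, against 0.002 over all genes. For Acss2 the interaction was 0.27 ± 0.18 (edgeR adjusted p = 0.481), so its rise in Pds5a-/- mESCs was not shown to exceed that in WT mESCs. Of the 8 mESC markers 4 had a called negative interaction, with a median of -0.89 over the list, and 1 of 4 tested trophoblast markers had one too. Their part in the lipid gene results was not tested.

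Pds5a-/- mESCs with siPds5b, which combined the Pds5a edit with less Pds5b RNA, were also compared with WT siGLO mESCs. In this comparison 13 of the 33 genes were higher and 1 lower, where 32% of all genes were called, 17.4% higher and 14.6% lower. The 13 of 33 higher were thus above the background share and the 1 lower was below it. The median log2 fold change was 0.18, against -0.001 over all genes, and reached 0.48 in the mevalonate branch, with 3 of 7 called, and 0.48 in control and transport, with 4 of 5 called.

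Acss2 had the largest rise, from 147 to 157 normalised counts in WT siGLO to 331 to 366, a log2 fold change of 1.16 ± 0.13 by edgeR (adjusted p = 1.37e-07). Fads2, the fatty acid delta-6 desaturase, was at 806, 914 and 869 in WT siGLO and at 1262, 1466 and 1801 in the depleted libraries (log2 fold change 0.81 ± 0.11, edgeR adjusted p = 3.91e-06). Neither gene overlapped between groups. Fads1 and Fads2 are paralogs and close neighbours on the genome, and Fads1 itself was at a log2 fold change of 0.18, not called.

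Hmgcs1 was at 6907, 7082 and 6540 in WT siGLO libraries, below the 9416 to 11418 of the depleted ones (log2 fold change 0.62 ± 0.094, edgeR adjusted p = 1.09e-05). Sqle was at 2971, 3320 and 3610 after depletion, above the WT range (log2 fold change 0.59 ± 0.083, edgeR adjusted p = 4.04e-06). The other genes that rose were Stard4 (0.57), Insig1 (0.55), Mvk (0.50), Scap (0.48), Fdps (0.48), Dhcr7 (0.47), Srebf2 (0.46), Lss (0.46), the lanosterol synthase, and Cyp51 (0.37). Within 500 kb, 7 of 17 tested neighbours of Scap were higher and 0 lower, where 17.4% of all genes were higher. For Fads2 6 of 15 were higher and 1 lower, and for Dhcr7 4 of 11 were higher and 1 lower. For Hmgcs1 1 of 10 was higher and 1 lower, and for Sqle 0 of 8 were higher. The part of the neighbourhood was not tested.

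Ebp was at 287, 334 and 363, below the WT siGLO range of 671 to 772, with a log2 fold change of -1.13 ± 0.11 by edgeR (adjusted p = 9.42e-09). The count of called genes was 9 without WT replicate 1, with 8 higher and 1 lower, and 9 without siPds5b replicate 3, with 7 higher and 2 lower. Cyp51, Dhcr7, Insig1, Lss, Mvk and Stard4 lost their calls without at least 1 single library. Of the 8 mESC markers 7 fell, to sums of 60520 to 63730 from 106400 to 109100 in WT, and 3 of 4 tested trophoblast markers rose (sums of 789.3 to 1025 against 621.3 to 730). Of the neuroectoderm markers 1 rose and 2 fell (sums of 1063 to 1244 against 1967 to 2692), and 1 of 3 tested mesoderm and 1 of 6 fibroblast feeder markers fell (sums of 282.3 to 344.1 against 444.3 to 1164 and 525.6 to 1501 against 1168 to 1607). Their part in the lipid gene results was not tested. The interaction and the siPds5b effect share libraries with this comparison.

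The cohesin subunits STAG1 and STAG2 were depleted in the same Pds5a-/- mESCs. After siStag1 none of the 33 genes was called by edgeR or DESeq2, over an edgeR background of 0.0936%. Acaca, at 0.29 ± 0.091, and Ebp, at -0.27 ± 0.11, had an unadjusted p under 0.05. These were 2 of 33, where 10.7% of all genes had one. The log2 fold changes ran from -0.40 to 0.29, with 28 of 33 negative and a median of -0.05. Of the mESC markers 1 of 8 fell.

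After siStag2 none of the 33 was called by edgeR either, over an edgeR background of 2.24%. An unadjusted p under 0.05 was reached by 13 of the 33 and by 25.3% of all genes. DESeq2 called 3, Cyp51 and Acaca higher and Ebp lower, and its share over all genes is not given here. Acaca was nearest to the threshold, with 3723, 3076 and 3020 normalised counts against 2376 to 2703 under siGLO, at a log2 fold change of 0.39 ± 0.091 by edgeR (adjusted p = 0.0113). The groups did not overlap. The median was 0.17, with 30 of 33 positive, and 0.27 without siGLO replicate 3, when 1 gene was called. Of the mESC markers 6 of 8 fell, to sums of 54750 to 63680, and 1 trophoblast marker fell (sums of 925.2 to 1014 against 1155 to 1546 under siGLO), and their part was not tested.

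Set against siPds5b in the same cells, siStag2 differed in 1 of the 33 genes, where 3.96% of all genes were called, 1.92% higher and 2.04% lower. Acss2 was at 192, 203 and 250 under siStag2, below the 331 to 366 under siPds5b, a log2 difference of -0.67 ± 0.13 (edgeR adjusted p = 0.00144). The call was lost without siStag2 replicate 1 (log2 difference -0.60, edgeR adjusted p = 0.0149). With siStag1 Acss2 was at 168, 176 and 221, overlapping the siStag2 libraries. Of the 8 mESC markers 3 were called higher with siStag2 than with siPds5b and 0 lower, and their part was not tested.

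Of the 33 genes, 18 were called in at least 1 of the 10 comparisons and 15 in none, 3 of them in the mevalonate branch, 5 in the sterol steps, 1 in control and 6 in fatty acid synthesis. Several of the 15 were low in Pds5b-/- mESCs without passing the threshold. Acat2, which joins acetyl-CoA units at the start of the mevalonate branch, was at 1881, 1967 and 2090 normalised counts there, below the 2370 to 2410 of WT siGLO libraries (log2 fold change -0.27 ± 0.089, edgeR adjusted p = 0.025). Sc5d, a late sterol desaturase, was at 492.5 to 539.7 against 596.4 to 615.1 in WT (log2 fold change -0.24 ± 0.088, edgeR adjusted p = 0.0444). Nsdhl, which removes carbon from the sterol nucleus with its partner enzymes, was at 526.7 to 578.3 against 639.2 to 709.8 in WT (log2 fold change -0.28 ± 0.12, edgeR adjusted p = 0.0694). For all 3 genes the Pds5b-/- libraries lay below every WT siGLO library. The share of all genes separated in this way is not given here, so the separation is no trait particular to these 3. In this comparison 42.55% of all genes had an unadjusted p under 0.05.

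Mvd, which makes isopentenyl diphosphate, came nearest to a call with siPds5b in Pds5a-/- mESCs against WT, at 1289 to 1932 and 1041 to 1264 normalised counts (log2 fold change 0.48 ± 0.15, edgeR adjusted p = 0.0153). Msmo1, a sterol demethylase, went the other way in the same comparison, at 2064 to 2768 and 2845 to 3181 (log2 fold change -0.31 ± 0.11, edgeR adjusted p = 0.0182). Neither gene overlapped between those groups. Both lie on chromosome 8, whose 781 tested genes had a median log2 fold change of -0.23 in that comparison, with 31.5% called lower and 8.32% higher. Pmvk, phosphomevalonate kinase, had its lowest adjusted p between the knockouts (log2 difference 0.37 ± 0.13, edgeR adjusted p = 0.037). Hsd17b7 was highest with siStag2 in Pds5a-/- mESCs, at 381.2 to 410.9 against 289.9 to 372 under siGLO (log2 fold change 0.30 ± 0.11, edgeR adjusted p = 0.09).

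The desaturases Scd1 and Scd2 had the widest SEs of the 33 genes, 0.19 and 0.23 in the comparison of Pds5a-/- with WT mESCs. Scd2 ran from 10050 to 18700 normalised counts among Pds5a-/- siGLO libraries and from 14510 to 17820 among WT siGLO libraries, so no difference between these groups was detectable. The elongase Elovl6 was at 4083 to 4131 with siPds5b in Pds5a-/- mESCs, above the 3296 to 3693 under siGLO (log2 fold change 0.21 ± 0.071, edgeR adjusted p = 0.0438). Tm7sf2, Acly, Fads1 and Acsl3, a fatty acyl-CoA ligase, stayed at an adjusted p above 0.1 in all 10 comparisons. Their log2 values ran from -0.11 to 0.23 for Tm7sf2, -0.05 to 0.13 for Acly, -0.11 to 0.18 for Fads1 and -0.20 to 0.27 for Acsl3.

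The 4 regulators of the pathway were followed in every group. Srebf2 was at 4771 ± 235 normalised counts in WT siGLO and 4613 ± 129 in WT siPds5b libraries (SD, n = 3). In Pds5a-/- mESCs it was at 5927 ± 792 with siGLO, 6575 ± 874 with siPds5b, 5902 ± 542 with siStag1 and 7414 ± 484 with siStag2, and in Pds5b-/- mESCs at 5940 ± 341. Against WT, the log2 fold change of Srebf2 in Pds5a-/- mESCs was 0.31 (edgeR adjusted p = 0.0147). In Pds5b-/- mESCs it was 0.32 (edgeR adjusted p = 0.0133), and neither passed the threshold. It was called with siPds5b in Pds5a-/- mESCs compared with WT (0.46 ± 0.094, edgeR adjusted p = 0.000333), and siStag1 and siStag2 were not compared with WT.

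Srebf1 was called in none of the 10 comparisons. It was at 1561 ± 183 in WT siGLO, 1403 ± 128 in WT siPds5b, 1460 ± 211 in Pds5a-/- siGLO and 1515 ± 121 in Pds5b-/- libraries. With siPds5b, siStag1 and siStag2 in Pds5a-/- mESCs it was at 1559 ± 168, 1263 ± 124 and 1710 ± 59.0. Within a genotype the siRNA groups overlapped the siGLO group, apart from siStag2, whose 1665 to 1776 lay above the siGLO range of 1217 to 1595 without a call (0.23, edgeR adjusted p = 0.185).

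Scap was at 719.8 ± 41.0 in WT siGLO, 763.1 ± 50.0 in WT siPds5b, 807.2 ± 92.8 in Pds5a-/- siGLO and 904.9 ± 60.6 in Pds5b-/- libraries. In Pds5a-/- mESCs it was at 1004 ± 64.1 with siPds5b, 795.3 ± 32.9 with siStag1 and 935.5 ± 65.4 with siStag2. The siPds5b libraries, at 940, 1003 and 1068, were above all 3 siGLO libraries of Pds5a-/- mESCs, at 725, 788 and 908 (0.31, edgeR adjusted p = 0.0163), and above the WT range.

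Insig1, which retains SCAP and is itself known as an SREBP target, was at 2584 ± 141 in WT siGLO, 2596 ± 377 in WT siPds5b, 3116 ± 411 in Pds5a-/- siGLO and 2252 ± 85.5 in Pds5b-/- libraries. In Pds5a-/- mESCs it was at 3771 ± 408 with siPds5b, 3034 ± 359 with siStag1 and 3693 ± 865 with siStag2. The knockouts did not overlap, but their difference of 0.47 was not called (edgeR adjusted p = 0.017).

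Within groups the genes moved together from library to library. The replicate numbered 1 was the lowest of its group for 30 of 33 genes in Pds5a-/- siGLO, 27 with siPds5b, 23 with siStag1 and 18 with siStag2, and the replicate numbered 3 was the highest for 29, 28, 27 and 23. In WT mESCs the replicate numbered 2 was highest for 22 genes with siGLO and 29 with siPds5b. The scaling holds the median deviation over all genes near 0 (-0.005 to 0.012). Replicates differed over all genes too, by chi-square per gene. Replicate 1 gave 20.45 and 23.09 against the others in Pds5a-/- siGLO, with 8.5 between replicates 2 and 3. In Pds5b-/- mESCs these were 15.19, 25.08 and 6.752. With siStag2 the largest, 22.8, was between replicates 2 and 3. The movement was thus not shown to be particular to the 33 genes, and whether other genes shifted in the same direction was not tested. The median over the 33 genes was -0.02, 0.13 and 0.24 in the Pds5a-/- siGLO libraries, relative to the WT siGLO mean on the log2 scale, and 0.12, 0.26 and 0.37 with siPds5b. The siStag2 libraries had medians of 0.25, 0.29 and 0.35, and the difference between libraries of 1 group was thus as large as that between some groups.

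**Figure D5:**
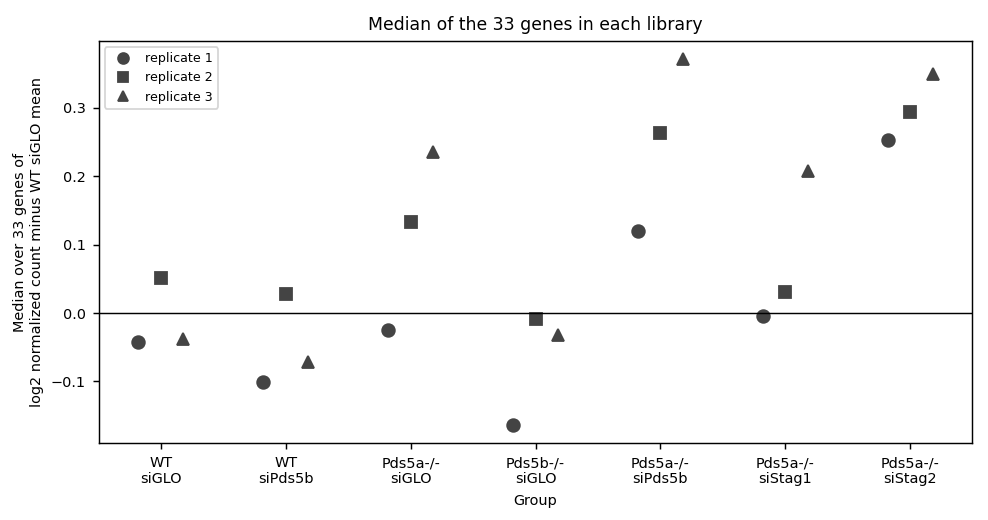
Median over the 33 genes of the log2 normalised count relative to the WT siGLO mean (y axis) for each library, by group (x axis), with the marker giving the replicate number. The 3 libraries of Pds5a-/- siGLO lie at -0.02, 0.13 and 0.24, and those of Pds5a-/- siPds5b at 0.12, 0.26 and 0.37.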

How the data were processed

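The deposited values were read counts per gene for 21 libraries, which the authors made with STAR on mm10 according to the submitters' processing notes. The notes also name DESeq2, and the counting tool was not given in the sources used here. Groups followed the sample labels.

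Counts were tested with edgeR 4.0.16 in R 4.3.3 (filterByExpr, TMM, robust quasi-likelihood fit over all 7 groups), with Benjamini-Hochberg adjustment over 14963 genes and a call at an adjusted p under 0.01. Normalised counts were scaled to the mean effective library size of 19816922. SEs came from the F statistic, and the fits were tested on simulated data. Alternatives were DESeq2 1.42.0, other scalings and filters, a replicate block common to all 7 groups, the compared groups alone, other thresholds and leaving out libraries. Figures were drawn with matplotlib 3.10.9 in Python 3.11.15. Promoters and positions came from RefSeq GRCm38.p6, and exon lengths from GENCODE M21. Positions were found for 92.9% of tested genes by symbol and for 99.6% with older symbols, and the latter were used.

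The rule for the 33 genes used no measured value, but they and the lists were chosen with earlier results of these data known. Values in every library were given for up to 4 called genes of largest rise and fall per comparison, for all called genes where there were 6 or fewer, and for 4 regulators in every group. Genes outside the 33 were named from 4 context lists (other sterol, liver X receptor, other fatty acid synthesis and fatty acid oxidation genes), at most 3 called per list and comparison. Same-numbered replicates deviated together (every correlation over 0.1) for siPds5b against siGLO in WT (0.143 to 0.282) and in Pds5a-/- mESCs (0.148 to 0.423). No pair of replicates agreed within sampling noise (lowest chi-square per gene 4.77).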

Additional observations from a re-analysis of the deposited data

How the results depend on the processing

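Over all alternatives, the fold changes of called genes kept direction and call in 491 cases, lost the call in 101 and reversed in 0. The count of 4 in Pds5a-/- against WT mESCs became 7 with the replicate block, 2 with only the groups compared, 8 at an adjusted p under 0.05 and 0 at a log2 fold change of 1 or more. The count of 7 in Pds5b-/- mESCs became 11 with the block, 12 at 0.05 and 0 at a log2 change of 1, and that of 9 between the knockouts 14 at 0.05 and 0 at a log2 change of 1. With siPds5b in Pds5a-/- mESCs the 2 calls became 5 with DESeq2, 6 with the block, 1 with only the groups compared, 8 at 0.05 and 0 at a log2 change of 1. After siStag2 the 0 calls became 3 with DESeq2, 1 without a filter, 4 with the block and 6 at 0.05. Against WT the siPds5b count of 14 in Pds5a-/- mESCs became 2 at a log2 change of 1, and siStag2 against siPds5b had 0 with only the groups compared and 0 at a log2 change of 1. The numbers did not pair the libraries where the block gave 7, 11 and 4, nor where it gave 13 between the knockouts and 16 for siPds5b against WT. In WT mESCs with siPds5b the block changed no call.

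Leaving out a library, or every library of a number (an alternative chosen after seeing the data), gave counts of 1 to 9 in Pds5a-/-, 2 to 8 in Pds5b-/-, 2 to 12 between the knockouts, 0 to 5 with siPds5b in Pds5a-/-, 0 to 1 with siStag2, 6 to 18 with siPds5b against WT and 0 to 1 for siStag2 against siPds5b. Medians over the 33 genes ran from 0.0905 to 0.2724 with siStag2, 0.1124 to 0.2932 with siPds5b against WT and -0.0334 to 0.1247 for siStag2 against siPds5b.

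Regulators near 0 and not called changed sign. Leaving out libraries, Srebf1 ran from -0.184 to 0.0125 in Pds5a-/-, -0.1123 to 0.0491 in Pds5b-/-, -0.1456 to 0.0399 between them, -0.0176 to 0.1806 with siPds5b in Pds5a-/- and -0.09 to 0.0715 with siPds5b against WT. Srebf2 ran from -0.1457 to 0.0945 between the knockouts and -0.1052 to 0.0733 with siStag1, and Scap from -0.0862 to 0.0739 with siStag1. Insig1 ran from -0.1177 to 0.0788 with siPds5b in WT, -0.1373 to 0.056 with siStag1 and -0.2134 to 0.1301 for siStag2 against siPds5b. Insig1 in WT was -0.0003 by library size alone, and Srebf2 with siStag1 0.0004 by DESeq2 and 0.0002 by RLE scaling. Srebf1 with siPds5b against WT was 0.0019 by DESeq2, 0.0025 by RLE, 0.0301 by library size, 0.0133 with a minimum of 10 counts, 0.0004 with the replicate block and 0.0021 with only the groups compared. The causes were not tested.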

Other observations

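Genes of neighbouring pathways, outside the 33, moved in both directions in the knockouts. Over all genes tested, 9.63% were called higher and 8.12% lower in Pds5a-/- against WT mESCs, 9.64% and 8.57% in Pds5b-/- against WT, 9.74% and 9.46% in Pds5a-/- against Pds5b-/-, and 17.4% and 14.6% with siPds5b in Pds5a-/- against WT, and the counts are to be read against these shares. Of 8 liver X receptors and their targets, 2 were higher in Pds5a-/- than in WT mESCs, the cholesterol exporter Abcg1 at a log2 fold change of 0.78 ± 0.18 (SE, edgeR adjusted p = 0.00281) and the phospholipid acyltransferase Lpcat3 at 0.35 ± 0.078 (edgeR adjusted p = 0.00147). In Pds5b-/- mESCs Abca1, another cholesterol exporter, was higher at 1.03 ± 0.16 (edgeR adjusted p = 2.58e-05) and Mylip, a ubiquitin ligase, lower at -0.89 ± 0.14 (edgeR adjusted p = 4.45e-05). Between the knockouts 5 of the 8 were higher and 1 lower in Pds5a-/- mESCs. Mylip rose with siPds5b in Pds5a-/- mESCs (0.55 ± 0.13, edgeR adjusted p = 0.00536), its interaction was called (0.89 ± 0.19, edgeR adjusted p = 0.00731), and 4 of the 8 were higher in those cells than in WT siGLO mESCs.

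Of 12 tested genes of fatty acid oxidation, 2 were lower in Pds5a-/- and 4 in Pds5b-/- mESCs compared with WT. None was higher by edgeR at the threshold. At an unadjusted p under 0.05 the Pds5a-/- comparison had 1 positive and 3 negative, where 38.57% of all genes reached it. The Pds5b-/- comparison had 0 positive and 7 negative, where 42.55% of all genes did. Cpt1a, which carries fatty acids into mitochondria, was at -0.72 ± 0.14 in Pds5a-/- mESCs (edgeR adjusted p = 0.000488). Slc25a20, the mitochondrial acylcarnitine carrier, was at -1.14 ± 0.11 in Pds5b-/- mESCs (edgeR adjusted p = 5.45e-08), and it fell in Pds5a-/- mESCs with siPds5b (-0.51 ± 0.11, edgeR adjusted p = 0.00215) and with siStag2 (-0.86 ± 0.11, edgeR adjusted p = 6.23e-05). In Pds5a-/- mESCs siPds5b also raised Acadl and Acadvl, acyl-CoA dehydrogenases, by 0.41 and 0.40 on the log2 scale, and against WT siGLO these cells had 3 of the 12 higher and 3 lower.

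Of 15 other genes of fatty acid synthesis and activation, 2 were higher and 4 lower in Pds5a-/- mESCs, 1 higher and 3 lower in Pds5b-/- mESCs, and 3 higher and 5 lower with siPds5b in Pds5a-/- mESCs against WT. Acsl4, which activates arachidonic acid, was at 0.86 ± 0.098 in Pds5a-/- (edgeR adjusted p = 6.48e-07) and at 0.51 ± 0.098 in Pds5b-/- mESCs (edgeR adjusted p = 0.000425). It rose again with siPds5b in Pds5a-/- mESCs (0.55 ± 0.096, edgeR adjusted p = 0.000314), with an interaction of 0.64 ± 0.14 (edgeR adjusted p = 0.00812). Elovl7, an elongase, was lower in both knockouts, at -0.70 and -0.67.

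Of 18 other genes of sterol synthesis and handling, 1 was higher and 2 lower in Pds5a-/- and 3 higher and 2 lower in Pds5b-/- mESCs compared with WT, where 17.8% and 18.2% of all genes were called. Mbtps1, a protease that cleaves SREBP in the Golgi, was at 0.52 ± 0.078 in Pds5b-/- mESCs (edgeR adjusted p = 2.21e-05). It lies on chromosome 8, whose 781 tested genes had a median of 0.30 there, with 36.4% called higher. Lbr, which has sterol reductase activity, rose with siPds5b (0.25 ± 0.055, edgeR adjusted p = 0.00302) and with siStag2 (0.29 ± 0.055, edgeR adjusted p = 0.00251) in Pds5a-/- mESCs. After siPds5b in WT mESCs and after siStag1 in Pds5a-/- mESCs none of these 4 lists had a called gene by edgeR. At an unadjusted p under 0.05 siPds5b in WT had 1, 2, 1 and 1 genes of the sterol, liver X receptor, synthesis and oxidation lists, and siStag1 had 1, 0, 4 and 3. Over all genes tested, 4.22% reached this p with siPds5b in WT and 10.7% with siStag1.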
